A study of Mus musculus with 6 samples.

Results

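The plasminogen activator system was described here in marrow cell cultures kept under bone-forming conditions, through 5 genes: the urokinase activator Plau, the tissue-type activator Plat, the urokinase receptor Plaur, and the serpins Serpine2 and Serpinb2. They were taken by symbol from the deposited expression table, which held each of them once among 56691 genes. The cells were bone marrow stromal cells (BMSCs) from wild-type mice, the adherent marrow cells that can form bone, which had been kept for 7 days in osteoblast differentiation medium with serum, penicillin/streptomycin, ascorbic acid and beta-glycerophosphate. One group of 3 samples received conditioned medium from Hepa 1-6, a mouse liver tumour cell line, and the other group of 3 samples received control medium. What the control medium had been in contact with, and the mouse strain, age and number of animals, are not stated in the sources used here, so an effect of tumour cell products and an effect of conditioning as such cannot be told apart. Separate cultures or animals are not stated for the replicates, so p-values cover only the differences among these samples, and those may be technical. The libraries held 18661629 to 21329475 counts.

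Plasminogen activators cut the inactive precursor plasminogen to plasmin, a broad protease that dissolves fibrin, degrades matrix proteins and switches on some matrix metalloproteinases. Urokinase acts mostly at the cell surface, bound to its receptor, while the tissue-type activator works best on fibrin. The serpins are suicide inhibitors that trap a protease after it cuts their reactive loop, and marrow stromal cells, osteoblasts and macrophages are all known sources of parts of this system. Not every inhibitor of the activators was analysed here.

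The promoters of the 3 genes with an entry in the RefSeq promoter table (GRCm38.p6) are shown first, because they belong to the gene with the largest change and to a gene each with an intermediate and a small one. Each runs 5′ to 3′ on the gene's strand from 250 bases before to 50 bases after the annotated start, and capitals mark the matches to 5 short motifs that were searched on both strands. The motifs were the TATA box TATAAA, the AP-1 site TGANTCA, the cyclic AMP response element TGACGTCA, the consensus NF-kB site and the GC box GGGCGG. The Serpinb2 promoter lies at chr1:107511173-107511472 on the plus strand, that of Plaur at chr7:24462233-24462532 on the plus strand, and that of Serpine2 at chr1:79858616-79858915 on the minus strand.
Serpinb2: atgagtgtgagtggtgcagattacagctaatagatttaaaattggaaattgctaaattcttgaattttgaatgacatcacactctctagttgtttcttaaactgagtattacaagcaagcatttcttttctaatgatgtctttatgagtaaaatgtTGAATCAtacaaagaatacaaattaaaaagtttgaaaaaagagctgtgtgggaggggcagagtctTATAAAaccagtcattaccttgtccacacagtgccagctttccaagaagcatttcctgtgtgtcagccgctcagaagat
Plaur: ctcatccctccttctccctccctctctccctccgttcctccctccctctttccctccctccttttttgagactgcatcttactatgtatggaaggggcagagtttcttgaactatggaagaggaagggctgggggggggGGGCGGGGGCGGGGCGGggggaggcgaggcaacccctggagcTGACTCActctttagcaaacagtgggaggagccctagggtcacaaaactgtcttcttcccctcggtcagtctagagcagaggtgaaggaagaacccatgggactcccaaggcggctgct
Serpine2: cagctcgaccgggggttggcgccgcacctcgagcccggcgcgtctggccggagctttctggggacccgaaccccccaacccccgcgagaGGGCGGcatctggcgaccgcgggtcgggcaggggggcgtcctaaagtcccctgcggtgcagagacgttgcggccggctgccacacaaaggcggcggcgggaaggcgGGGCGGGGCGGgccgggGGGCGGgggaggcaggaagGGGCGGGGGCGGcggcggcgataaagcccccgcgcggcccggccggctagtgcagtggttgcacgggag

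The Serpinb2 sequence held a TATA box that began at position -29 and an AP-1 match that began at position -94, counted from the start of transcription. The same table also lists a second Serpinb2 start, 300 bases of which run from 107511260 to 107511559 on chromosome 1 and hold the same 2 matches. Plaur held an AP-1 match at position -69 and 3 overlapping or adjoining GC boxes. Serpine2 held 6 GC boxes and no match to the other motifs. Of 32851 promoters of this length in the table, 13.6% held the TATA box, 7.81% the AP-1 site, 35.7% the GC box, 4.51% the NF-kB site and 1.79% the cyclic AMP response element. The GC content was 35.3% for Serpinb2, 59.3% for Plaur and 77.7% for Serpine2, against a median of 52.7% over all promoters. These positions are in GRCm38.p6 and those of the genes below, from the deposited table, in GRCm39. A match describes these letters and does not show that a factor binds there.

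The comparison asked how the transcripts of this system differ when the cells differentiate in conditioned rather than control medium. All 5 genes had higher levels in every conditioned library than in any control library, but the sizes of the rises lay far apart. FPKM of the groups did not overlap in 53.2% of all genes tested, and conditioned medium was the higher in 24.7%. Serpinb2 went from a trace to the level of Plaur, a 107-fold rise. Plaur rose by 49.9%, Plat by 43.3%, Serpine2 by 22.5% and Plau 1.12-fold. Each of these passed edgeR's quasi-likelihood test at an adjusted p under 0.05, a threshold that 23.0% of the 12153 genes tested passed as rises and 22.9% as falls. Plat and Serpinb2 lay below the expression minimum of 1 FPKM (fragments per kilobase of exon, scaled to the total count of the library) in control medium and entered the test through conditioned medium, so the count of 5 rises is a description of these genes and not a result about the group.

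**Figure D1:**
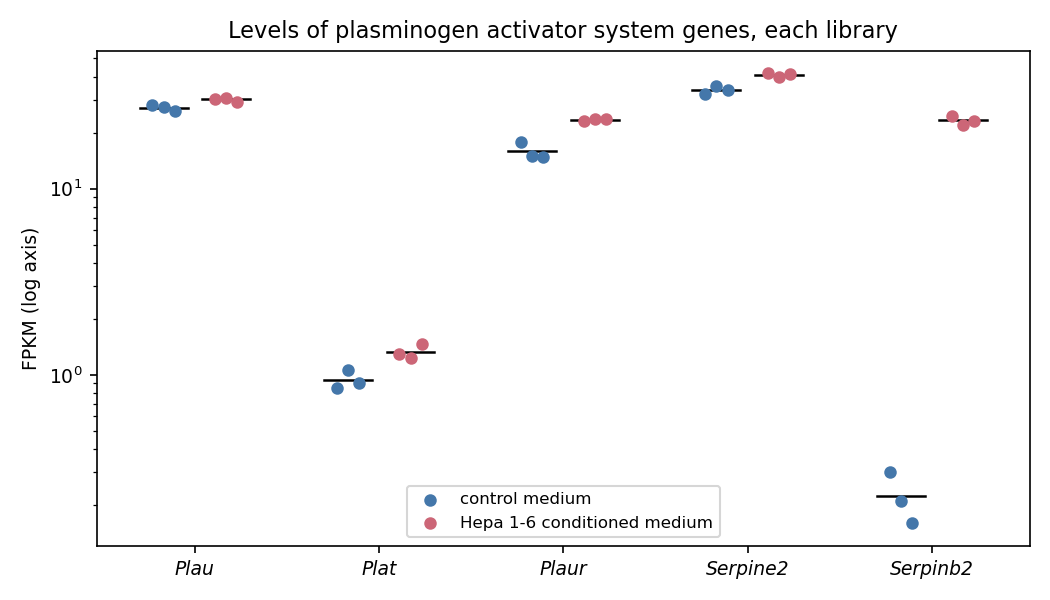
FPKM of each gene in each library on a log axis, with points for the 3 libraries of a group and black lines for their means. The groups do not overlap for any of the 5 genes, and the gap is widest for Serpinb2, at 0.16 to 0.30 FPKM in controls and 21.98 to 24.68 FPKM with conditioned medium.

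Of the activators, Plau was the abundant one. This gene (ENSMUSG00000021822) lies on chromosome 14 at 20886728 to 20893453 on the plus strand of GRCm39 and encodes urokinase. Its level was 28.00, 27.59 and 26.05 FPKM in controls replicates 1 to 3. In conditioned medium it was 30.38, 30.76 and 29.29 FPKM. Every conditioned library lay above every control library, with a small gap beside the levels themselves. The means were 27.2 ± 1.03 and 30.1 ± 0.763 FPKM (SD, n = 3 each), and the log2 fold change, conditioned minus control medium, was 0.16 ± 0.050 (SE, adjusted p = 0.011 by edgeR's quasi-likelihood test). The call was marginal. It was lost without conditioned medium replicate 2 (0.15, adjusted p = 0.052 by edgeR) and when FPKM was rescaled so that every library had the same sum (TPM) and tested with limma (0.11, adjusted p = 0.052). Over 13 alternatives the adjusted p of Plau ran from 0.010 to 0.052.

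**Figure D2:**
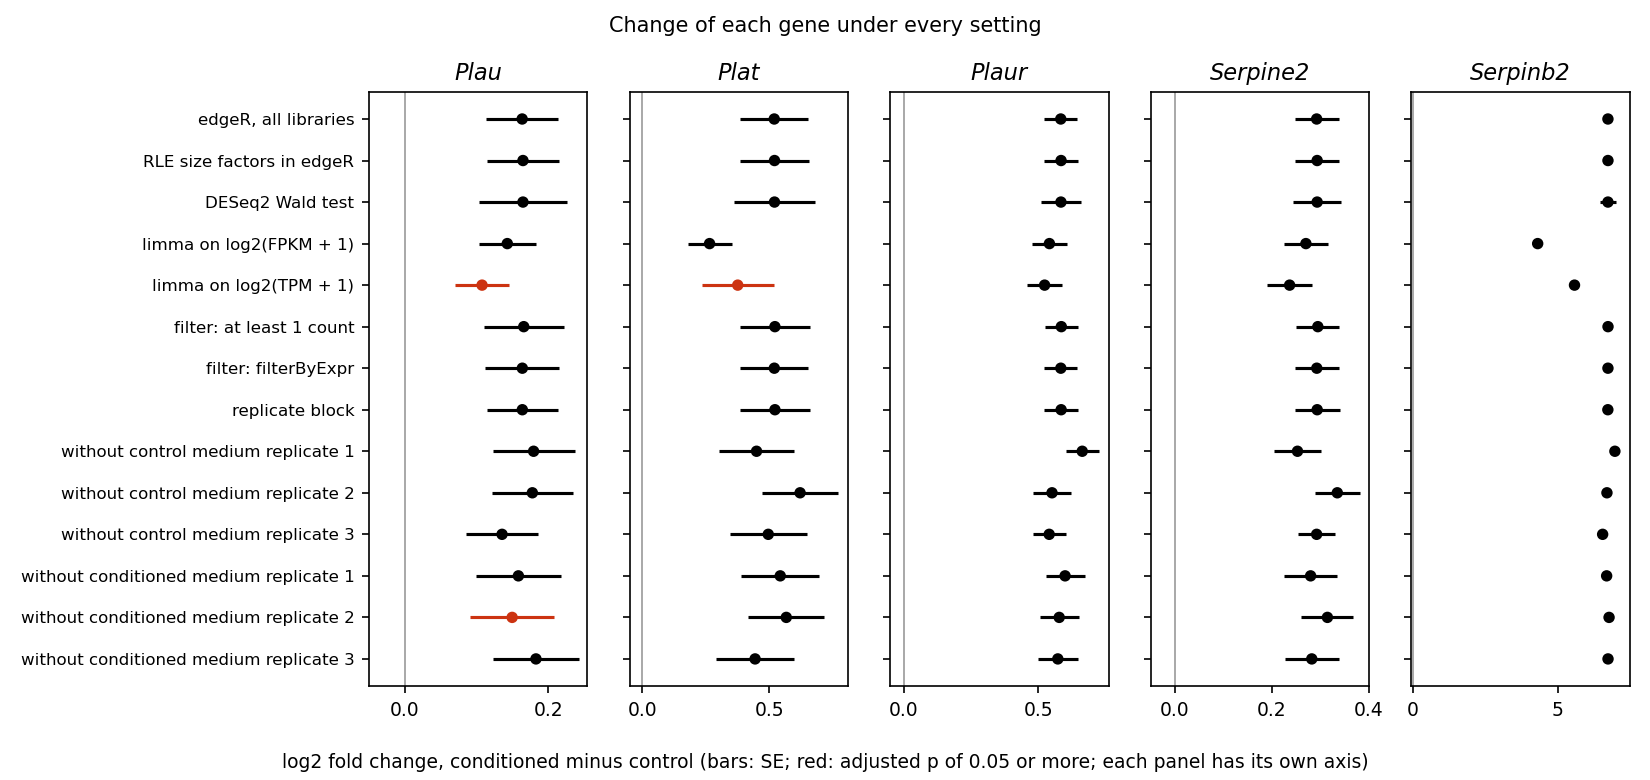
Log2 fold change, conditioned minus control medium, of each of the 5 genes with all libraries and under 13 alternatives, with bars for the SE and an axis of its own for each gene. All points lie to the right of 0; the red points, where the adjusted p was 0.05 or more, are Plau without conditioned medium replicate 2 and Plau and Plat with limma on log2(TPM + 1).

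Plat (ENSMUSG00000031538, chromosome 8 at 23247743 to 23272860, plus strand) encodes the tissue-type activator and was scarce. It was at 0.85, 1.06 and 0.91 FPKM in controls and at 1.29, 1.24 and 1.46 FPKM with conditioned medium, which rests on 352 and 511 counts over the groups. The groups did not overlap. The rise in Plat was 0.52 ± 0.13 on the log2 scale (adjusted p = 0.0033 by edgeR), and its call was lost with limma on rescaled values (0.38, adjusted p = 0.065, the highest of 13 alternatives, with the lowest at 0.0010).

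The ratio of Plau to Plat within a library, in FPKM, was 32.9, 26.0 and 28.6 in control medium and 23.6, 24.8 and 20.1 in conditioned medium. The ratio was thus lower in every conditioned library than in any control library, by 0.36 on the log2 scale, with p = 0.10 in an exact two-sided permutation test. That is the smallest p that 3 against 3 samples can give, and it became 0.20 when adjusted over the 2 ratios tested.

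The receptor gene Plaur (ENSMUSG00000046223, chromosome 7 at 24161909 to 24175393, plus strand) encodes uPAR, a membrane-anchored protein that holds urokinase at the cell surface and is used as a marker of activated myeloid cells. It was at 17.71, 15.03 and 14.82 FPKM in controls and at 22.96, 23.68 and 23.77 FPKM with conditioned medium. Control medium replicate 1 stood above the other control libraries, while the conditioned libraries lay close together and above all of them. The rise in Plaur was 0.58 ± 0.062 on the log2 scale (adjusted p = 1.0e-07 by edgeR), and 0.66 without control medium replicate 1. Of all genes tested, 7.20% had a higher log2 fold change.

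Of the inhibitors, Serpine2 was the most abundant of the 5 genes in every library. Serpine2 (ENSMUSG00000026249, chromosome 1 at 79771914 to 79838897, minus strand) encodes protease nexin-1, a secreted serpin that inhibits thrombin, urokinase, the tissue-type activator and plasmin. It was at 32.12, 35.59 and 33.66 FPKM in controls. It was at 41.66, 39.69 and 41.43 FPKM with conditioned medium, again with no overlap. The rise in Serpine2 was 0.29 ± 0.045 on the log2 scale (adjusted p = 1.8e-05 by edgeR).

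The ratio of Plau to Serpine2, in FPKM, was 0.872, 0.775 and 0.774 in control medium and 0.729, 0.775 and 0.707 in conditioned medium. These values overlapped between the groups in that conditioned medium replicate 2 lay between control medium replicates 2 and 3. The difference of 0.13 on the log2 scale, lower in conditioned medium, had p = 0.20 in the exact permutation test and an adjusted p of 0.20. As this test cannot reach 0.05 with 3 against 3 samples, it leaves undecided whether the ratio changed.

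Serpinb2 (ENSMUSG00000062345, chromosome 1 at 107439153 to 107463208, plus strand) encodes plasminogen activator inhibitor 2. The protein belongs to the clade B serpins, most of which stay inside the cell, and the gene is known as one that monocytes and macrophages switch on under inflammatory stimuli. It had 13, 10 and 8 counts in the control libraries and 1207, 985 and 1159 counts in the conditioned libraries. In FPKM this was 0.30, 0.21 and 0.16 against 24.68, 21.98 and 23.13. The fitted log2 fold change was 6.74, a 107-fold rise (adjusted p = 7.7e-20 by edgeR). The model's SE of 0.13 understates the error, because the counting error alone comes to 0.26. With counts scaled by library size the ratio was 106, with an exact 95% counting interval of 74.2 to 156 that covers counting error only. DESeq2 gave 6.74 ± 0.27.

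Serpinb2 had the largest of these changes by a wide margin. Its log2 fold change ranked 13 among the 12153 genes, and 3.1% of the genes tested were called and rose at least 2-fold. Of the 5 genes only Serpinb2 passed that fold. By level per length, Serpinb2 ranked 12126 of 12153 tested genes in control medium and 2007 in conditioned medium. For comparison, Plau ranked 1632 in control medium and 1493 in conditioned medium, and Serpine2 ranked 1268 and 1055. The ranked genes are only those whose mean over the 6 libraries reached 1 FPKM. Serpinb2 is among them through conditioned medium, so its low rank in control medium follows from that filter. The same filter favours a high rank of its fold change, so that rank is a description of Serpinb2.

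**Figure D3:**
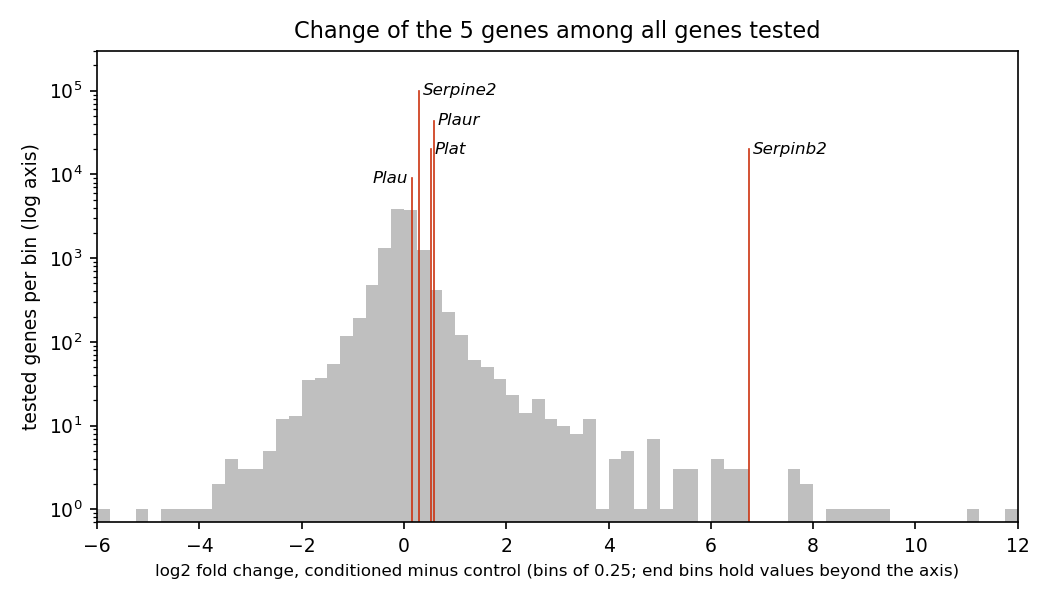
Number of tested genes (log axis) by log2 fold change, conditioned minus control medium, in bins of 0.25, with a red line at each of the 5 genes. Plau, Serpine2, Plat and Plaur, at 0.16 to 0.58, lie inside the bulk of genes, and Serpinb2, at 6.74, lies in the sparse right tail.

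The order of the genes by level differed between the media in the place of Serpinb2. In control medium it ran Serpine2, Plau, Plaur, Plat and Serpinb2, with no overlap between neighbours in the 3 libraries. In conditioned medium Serpinb2 stood beside Plaur, at 23.3 ± 1.35 and 23.5 ± 0.444 FPKM (SD, n = 3), and their ranges overlapped. The other neighbours remained apart. The 5 genes together summed to 78.98, 79.48 and 75.6 FPKM in controls and to 120.97, 117.35 and 119.08 FPKM with conditioned medium. Serpinb2 made up 0.212% to 0.380% of that sum in controls and 18.7% to 20.4% with conditioned medium. The share of Plau was 34.5% to 35.5% in controls and 24.6% to 26.2% in conditioned medium, while its own level was higher. The level of Serpinb2 was 0.00475 to 0.00934 times that of Serpine2 in control libraries and 0.554 to 0.592 times in conditioned ones. These shares and this last ratio were chosen after the values had been seen and were not tested. The sums, shares and ratios between genes depend on the exonic lengths of the deposited table. These were 8287 bases for Serpine2, 6241 for Plat, 2617 for Plaur, 2367 for Plau and 2349 for Serpinb2.

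**Figure D4:**
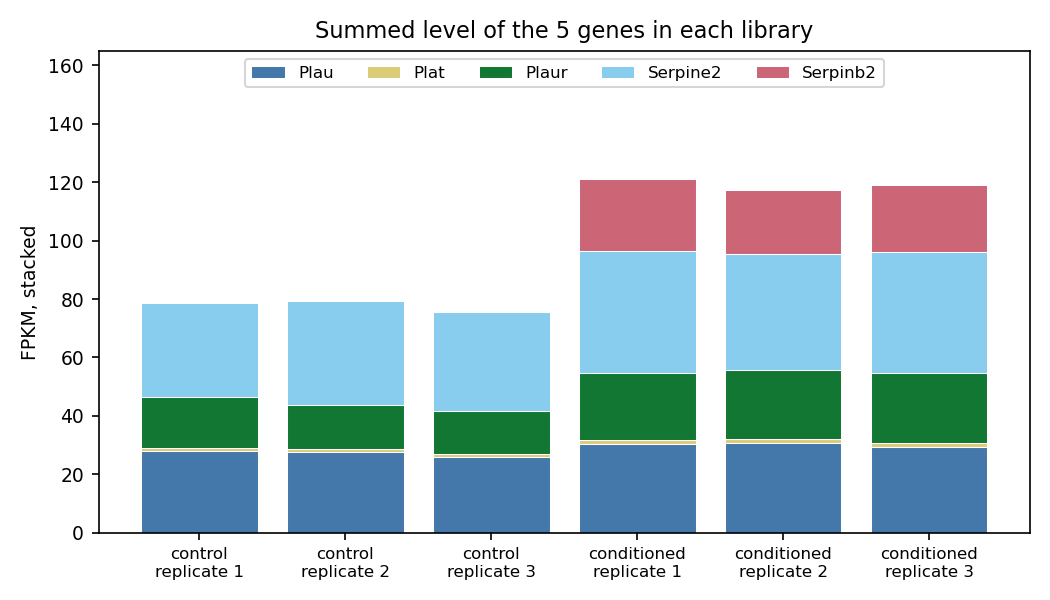
FPKM of the 5 genes stacked for each library. The conditioned libraries reach 117.35 to 120.97 FPKM against 75.6 to 79.48 FPKM in controls, and the Serpinb2 segment is visible in the conditioned libraries and too thin to see in the control ones.

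The markers of the cell types that could supply these transcripts are given beside them. All 7 osteoblast and stromal markers were detected in both groups, in accordance with the label, and so were all 10 macrophage markers. The summed level of the osteoblast and stromal markers was 1385 to 1503 FPKM in controls and 1156 to 1233 FPKM with conditioned medium, and 6 of these markers fell and 1 rose. Beside these and the marker counts below, 22.9% of all genes tested fell and 23.0% rose. Most of that sum was Col1a1, at 793 and 641 FPKM on average, and Col1a2, at 525 and 428 FPKM. Cdh11 was the 1 that rose, from 40.4 to 57.1 FPKM. Sp7 had the largest fall on the log2 scale, at -1.57. Macrophage markers summed to 2373 to 2566 FPKM in controls and 1883 to 1927 FPKM with conditioned medium, with 6 called as lower, 3 as higher and 1 not called. The largest drops in FPKM in that list were those of C1qa, from 501 to 261 on average, and C1qb, from 796 to 445. On the log2 scale the largest falls were those of Csf1r, at -1.35 (from 130 to 50.4 FPKM), and Aif1, at -1.13. The 3 that rose were Adgre1, from 457 to 585 FPKM, Mrc1, and Itgam, from 37.6 to 129 FPKM. Itgam is also counted below as a receptor partner. Neutrophil markers summed to 5.79 to 8.98 FPKM and 25.5 to 29.5 FPKM, of which S100a8 made up 3.71 and 24.5 FPKM on average. Of the 8 neutrophil markers 3 were tested: S100a8 and Camp rose, by 2.73 each on the log2 scale, and S100a9 changed by -1.14. Camp, at 0.283 FPKM in controls, entered the test through conditioned medium. S100a9, at 0.867 FPKM with conditioned medium, entered it through control medium. Of the untested ones, Mpo had 1 control count and 24 conditioned counts, Ngp 77 and 22, and Ltf 28 and 17, while Ly6g and Elane had 1 and 3 counts in all. Platelet markers summed to 41.8 to 45.04 FPKM in controls and 644 to 679.7 FPKM with conditioned medium, carried by the chemokine genes Pf4 and Ppbp, which both rose. Ppbp, at 0.240 FPKM in controls, entered the test through conditioned medium. The other 4 platelet markers were not tested: Itga2b had 76 control counts and 85 conditioned counts, Gp1ba 54 and 25 with no overlap of the groups, Gp6 2 and 7, and Gp9 4 and 0. Endothelial markers summed to 21.8 to 22.8 FPKM and 24.8 to 25.2 FPKM, and of the 4 tested Emcn rose and Kdr fell. Of the 6 liver and hepatoma markers Apoa1, Ttr, Serpina1a and Hnf4a had no count, and the list summed to 1.29 to 1.45 FPKM and 1.35 to 1.53 FPKM. The part of these cell types in the changes of the 5 genes was not tested, and in bulk samples fewer cells of a type and less RNA per cell cannot be told apart.

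Serpinb2 lies in a cluster of clade B serpin genes on chromosome 1, and most genes of that cluster were silent or nearly so. Of the 12 clade B genes listed on this chromosome, Serpinb2 and Serpinb8 passed the expression minimum. Serpinb8, which begins 54.5 kb beyond the end of Serpinb2, was at 4.00 ± 0.444 FPKM in controls and 7.49 ± 0.0400 FPKM with conditioned medium (log2 fold change 0.92 ± 0.076, adjusted p = 2.2e-09 by edgeR). Serpinb7, 58.7 kb before Serpinb2, had 12 control counts and 47 conditioned counts. Serpinb10, which overlaps the annotated span of Serpinb2 on the same strand, had 1 and 4 counts. No source used here states how reads in the overlap were assigned, and any reads that Serpinb2 lost there were not measured. No other gene of the table overlaps any of the 5. The remaining clade B genes of the cluster had 0 counts in all 6 libraries, apart from Serpinb5 with 1 control and 3 conditioned counts and Serpinb12 with 34 and 21.

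Across the wider clade B list of 11 genes, which leaves out Serpinb2, 4 were tested, of which 1 rose and 2 fell (median log2 fold change -0.045, against a median of -0.0028 over all genes tested). The abundant Serpinb6a fell by 0.23 ± 0.042 on the log2 scale, from 100.02 ± 4.71 to 84.3 ± 0.992 FPKM. Serpinb9, the granzyme B inhibitor, fell by 0.35 ± 0.057. Serpinb6a, Serpinb6b and Serpinb9 each have close paralogs that may have taken some of their reads, which makes these levels less certain. Below the minimum, Serpinb9b had 192 and 129 counts, a log2 fold change of -0.59 with edgeR's own filter on low counts (adjusted p = 0.030). Serpinb1a and Serpinb1b were not called with that filter.

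The surroundings of the system were described with 7 lists of 68 genes. Of these, 39 were tested, of which 23 rose, 9 fell and 7 were not called, with a median log2 fold change of 0.23. In shares, 59.0% of the tested list genes rose and 23.1% fell, against 23.0% and 22.9% of all genes tested. The lists were chosen with earlier results of these data known, and Mmp9 and F10 entered the test through conditioned medium. These shares are therefore a description and not a result about the lists. With edgeR's own filter on low counts, 48 list genes were tested, of which 26 rose and 12 fell. Of the 23 rises, 8 were coagulation genes, 5 receptor partners and 4 plasminogen receptors.

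Transcripts of plasminogen itself were scarcely detected. Plg had no control count and 1 conditioned count, and the plasmin inhibitor gene Serpinf2 had 3 and 4. A2m, the gene of the broad protease inhibitor alpha-2-macroglobulin, also lay below the minimum, with 7 and 61 counts and no overlap of the groups. A2m passed edgeR's own filter on low counts through conditioned medium. With that filter its log2 fold change was 3.10 (adjusted p = 6.3e-05 by edgeR), which describes this gene only. All 4 tested plasminogen receptors rose (median 0.34), against 23.0% of all genes tested. As the list was chosen with earlier results of these data known, this count is a description of these genes. Eno1, which encodes the glycolytic enzyme enolase 1 that also binds plasminogen at the surface of cells, was at 136 ± 9.81 FPKM in controls and 257 ± 7.15 FPKM with conditioned medium (log2 fold change 0.93 ± 0.046). Reads of Eno1 may be shared with near-identical copies of this gene, which makes its value uncertain. Anxa2 and S100a10 encode the subunits of a surface complex that binds plasminogen and the tissue-type activator. Anxa2 was at 187 ± 10.4 FPKM and 210.0 ± 3.04 FPKM (0.18 ± 0.043), and S100a10 rose by 0.27 ± 0.053. Plgrkt, a receptor that anchors plasminogen in the membrane, rose by 0.41 ± 0.061.

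Of the other serpins, Serping1, the C1 inhibitor gene, rose by 1.05 ± 0.051 on the log2 scale. Serpinf1, which encodes the pigment epithelium-derived factor and does not inhibit proteases, was at 152 ± 9.50 FPKM in controls and 136 ± 6.25 FPKM with conditioned medium. Its fall of 0.14 ± 0.048 on the log2 scale (adjusted p = 0.023 by edgeR) came with overlapping groups, and it was lost in 4 of the 6 fits without 1 library and with limma on log2(FPKM + 1) (adjusted p = 4.5e-05 to 0.15 over 13 alternatives). Serpini1, the neuroserpin gene, an inhibitor of the tissue-type activator, lay below the expression minimum at 123 and 308 counts. With edgeR's own filter on low counts its log2 fold change was 1.31 (adjusted p = 2.6e-06).

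Among the clearance receptors, which take up complexes of activator and inhibitor, the tested genes showed small changes. Of 5 tested genes 2 rose, 1 fell and 2 were not called (median -0.036). Vldlr, the very low density lipoprotein receptor gene, rose by 0.23 ± 0.059, and Lrpap1, the chaperone gene of these receptors, by 0.16 ± 0.046. Both calls were lost with limma on rescaled values alone (adjusted p = 0.0022 to 0.085 and 0.0071 to 0.068 over the alternatives). Igf2r was at 47.6 ± 4.03 and 45.9 ± 0.865 FPKM and Mrc2, a collagen uptake receptor gene whose product associates with the urokinase receptor, at 21.5 ± 0.951 and 20.7 ± 0.670 FPKM. Lrp1, the main clearance receptor gene, was at 129 ± 17.5 FPKM in controls and 112 ± 2.56 FPKM with conditioned medium, and its log2 fold change of -0.18 ± 0.062 (adjusted p = 0.022 by edgeR) became -0.060 (adjusted p = 0.10) without control medium replicate 3. The Lrp1 call was also lost without any 1 of the conditioned libraries (adjusted p = 0.052 to 0.10), with DESeq2 (adjusted p = 0.23) and with limma on either scale, 7 of 13 alternatives in all, whose adjusted p ran from 1.1e-05 to 0.23. Below the minimum, Sorl1 had 677 and 239 counts, a log2 fold change of -1.52 with edgeR's own filter (adjusted p = 1.5e-09). With the same filter, Lrp8, at 650 and 518 counts, changed by -0.34 (adjusted p = 0.017 by edgeR). Lrp2, at 221 and 293 counts, was not called (0.39, adjusted p = 0.12 by edgeR).

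The partners of the urokinase receptor moved apart. Of 10 tested genes 5 rose, 3 fell and 2 were not called (median 0.14). Among the rises, Itgam and Itgb2, the subunits of the Mac-1 integrin that pairs with the receptor, changed by 1.80 ± 0.043 and 0.46 ± 0.045. The formyl peptide receptor genes Fpr1 and Fpr2 rose by 1.14 ± 0.047 and 0.89 ± 0.050. Fpr1 was at 92.2 ± 2.54 FPKM in controls and 201 ± 8.72 FPKM with conditioned medium. The fibronectin receptor subunit gene Itga5 rose by 0.23 ± 0.040. Among the falls, the vitronectin receptor subunit gene Itgb5 changed by -0.70 ± 0.040, from 106 ± 1.10 to 64.5 ± 1.39 FPKM, and the integrin gene Itgb1 by -0.16 ± 0.036. Itgav changed by -0.12 ± 0.042 (adjusted p = 0.024 by edgeR), a call that was lost without any 1 of the conditioned medium libraries (adjusted p = 0.066 to 0.089, and 0.016 to 0.089 over all alternatives). Vtn, the gene of vitronectin, which the receptor also binds, had no count.

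Among substrates of urokinase or plasmin, 2 of 6 tested genes rose, 2 fell and 2 were not called (median 0.12). The zymogens of matrix metalloproteinases, which plasmin can activate, carried the rises: Mmp9 changed by 3.35 ± 0.11 and Mmp13 by 1.32 ± 0.063. Mmp9, at 0.690 FPKM in controls, lay below the minimum there and entered the test through conditioned medium. Mmp3, the stromelysin 1 gene, had no control count and 88 conditioned counts, at least 28.7-fold higher against a floor of 3 counts over the control group. Fn1, the fibronectin gene, was at 1021 ± 109 FPKM in controls and 708 ± 9.48 FPKM with conditioned medium (log2 fold change -0.51 ± 0.051), and the latent TGF-beta binding protein gene Ltbp1 changed by -0.15 ± 0.044. Hgf, the gene of a growth factor that urokinase can activate, was at 3.00 ± 0.252 and 3.38 ± 0.0520 FPKM and was not called (adjusted p = 0.052 by edgeR, 0.013 to 0.29 over the alternatives). Fibrin's own genes were silent or nearly so, with no count for Fgb and Fgg and 2 for Fga.

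All 8 tested genes of the coagulation list rose, with a median of 0.87. F10, at 0.200 FPKM in controls, lay below the minimum there and entered the test through conditioned medium. The count and the median are thus a description of these genes. Thbd, which encodes the thrombin-binding anticoagulant thrombomodulin, was at 4.89 ± 0.170 FPKM in controls and 14.0 ± 1.00 FPKM with conditioned medium (log2 fold change 1.54 ± 0.069). F3, the tissue factor gene that starts coagulation, was at 8.43 ± 0.222 and 17.9 ± 0.766 FPKM (1.10 ± 0.065). F10, the factor X gene, rose from 32 to 433 counts (3.73 ± 0.27), and Tfpi2, a Kunitz-type inhibitor of plasmin and other proteases, rose by 1.01 ± 0.13. The smaller rises were those of F13a1, whose product cross-links fibrin, Procr, Tfpi and F2r. The thrombin receptor gene F2r, at 0.14 ± 0.055 (adjusted p = 0.047 by edgeR), was lost in 9 of 13 alternatives, 5 of them fits without 1 library (adjusted p = 0.015 to 0.27). The prothrombin gene F2 had 1 count in all.

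**Figure D5:**
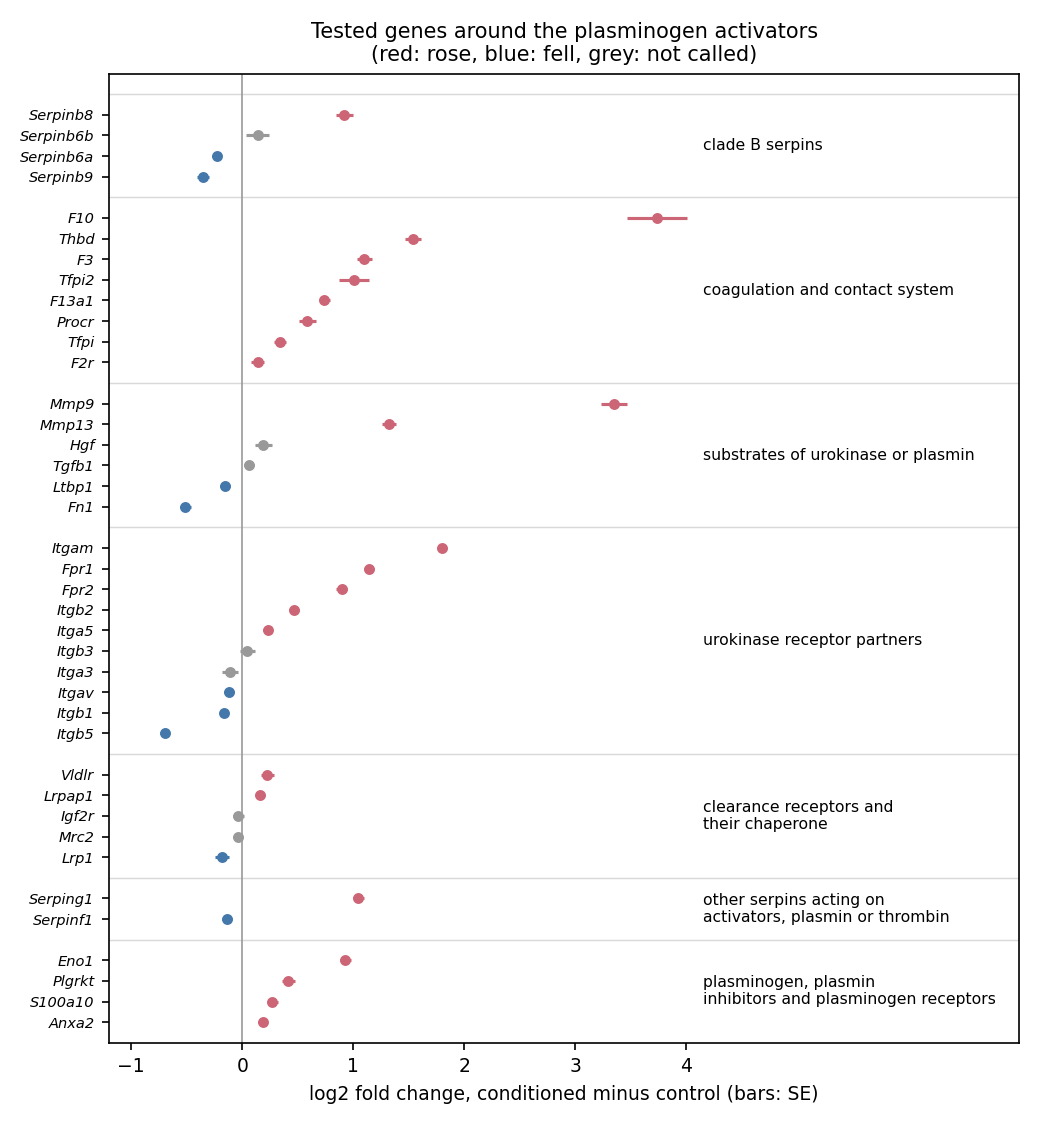
Log2 fold change, conditioned minus control medium, with its SE for the 39 tested genes of the 7 lists, grouped by role; red points rose, blue points fell and grey points were not called. The coagulation and plasminogen receptor groups lie wholly to the right of 0, while receptor partners run from Itgb5 at -0.70 to Itgam at 1.80. Serpinf1 is drawn with the serpins acting on activators, plasmin or thrombin, although its product does not inhibit proteases.

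Genes with the most similar pattern were found by the root mean square difference of log2(FPKM + 1) over the 6 libraries, after each gene was centred on its mean. For Serpinb2 they were Csf3, the granulocyte colony-stimulating factor gene, at 0.10, Slfn4, a schlafen gene of myeloid cells, at 0.11, and Mmp8, the neutrophil collagenase gene, at 0.13. Csf3 was at 0.107 ± 0.0404 FPKM in controls and 23.1 ± 0.648 FPKM with conditioned medium, through which it entered the test. Slfn4 was at 2.23 ± 0.218 FPKM in controls and 62.3 ± 1.68 FPKM with conditioned medium. For Plaur they were Napepld, Rhbdf2 and Slfn2, at 0.025 to 0.043, and Rhbdf2, which encodes a rhomboid-like protein that guides TACE to the cell surface, was at 5.52 ± 0.490 and 8.69 ± 0.162 FPKM. For Plau they were Jpt1, Vdac1 and Hdgf, for Plat Ptgr1, Unc119b and Psma5, and for Serpine2 Cacybp, Atg2b and Lsm10, all at 0.025 or less. The 6 libraries share a single contrast, and many genes with small changes are close to each other on this measure. The added 1 FPKM shrinks the changes of low genes, so a match need not have the same fold change. In the edgeR test, Plat changed by 0.52 on the log2 scale and its matches by 0.25 to 0.31. Serpinb2 changed by 6.74 and its matches by 4.82 to 7.78, where the highest is that of Csf3, near the floor in controls.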

How the data were processed

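RNA was measured in 3 samples of control medium and 3 of Hepa 1-6 conditioned medium, grouped by their titles. The genome build GRCm39 and the tools HTSeq 0.6.1, HISAT2 2.0.1, cutadapt 1.9.1 and DESeq2 stand without role or order in the submitters' processing notes. Poly(A) RNA was sequenced as paired ends, per the labels' protocols, and a strand setting for the counting is not given in any source used. The deposited counts are whole numbers that the authors did not normalize, 18661629 to 21329475 per sample. The deposited FPKM values equalled count over exonic length and total count in 100% of cases, within 0.006 FPKM.

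Counts were tested with edgeR 4.0.16 (quasi-likelihood, TMM factors, group as the single term, Benjamini-Hochberg adjustment) over the 12153 genes whose mean FPKM reached 1. SEs were the unshrunk log2 fold change divided by the root of the F statistic. Alternatives were DESeq2 1.42.0, limma 3.58.1 on log2(FPKM + 1) or log2(TPM + 1), RLE factors, 2 other filters, a replicate block and leaving out each library. Ratios were tested by exact permutation (scipy 1.17.1). The test was checked on simulated data. Replicates differed by more than sampling noise (chi-square per degree of freedom 2.30 to 9.89), so none was taken as a repeat deposit of another and each counted as 1 sample, which does not show that they are independent cultures.

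The members and lists were chosen with earlier results of these data known. From the lists, the text names called genes with at least 2-fold changes, otherwise the 2 most abundant, any called gene that moved against its list, and for each of the 5 genes the 3 genes of most similar pattern. Other list genes, genes below the minimum and genes of the cluster were named after their values had been seen.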

Additional observations from a re-analysis of the deposited data

How the results depend on the processing

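Plaur, Serpine2 and Serpinb2 kept their direction and their call under all 13 alternatives. The log2 fold change was 0.52 to 0.66 for Plaur, 0.24 to 0.33 for Serpine2 and 4.31 to 6.98 for Serpinb2, where the lowest value is on the log2(FPKM + 1) scale, which understates changes of low genes. Plau and Plat kept their direction. With limma on log2(TPM + 1), Plau was at 0.11 (adjusted p = 0.052) and Plat at 0.38 (adjusted p = 0.065), and neither was called. Leaving out 1 library at a time gave 0.14 to 0.18 for Plau, whose call was lost without conditioned medium replicate 2 (adjusted p = 0.052), and 0.44 to 0.62 for Plat. Plat was lowest with limma on log2(FPKM + 1), at 0.26, and kept its call there. Rises made up 50.1% of all calls in the edgeR test, 47.0% with limma on log2(FPKM + 1) and 38.6% with limma on log2(TPM + 1). The cause was not tested.

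Counts stayed within 1.5 times the main ones, at 1961 to 3224 rises and 2373 to 3220 falls over all genes, and 20 to 26 rises and 6 to 12 falls among the list genes. The log2 difference in the ratio of Plau to Plat was -0.43 to -0.27 and in that of Plau to Serpine2 -0.17 to -0.073. The log2 fold changes of Mmp9 and F10 were lower with limma on log2(FPKM + 1), at 2.23 and 1.58. The deviations of samples with the same replicate number correlated at -0.0033, 0.067 and 0.080. Those of samples with different numbers correlated at -0.086 to 0.017. All are weak, and 3 pairs are too few to decide whether the numbers mark a pairing. With the replicate block, 2831 genes rose and 2831 fell, no call of the 5 genes changed, and Plau was at 0.16, Plat at 0.52, Plaur at 0.59, Serpine2 at 0.29 and Serpinb2 at 6.73. In the paired sign-flip test of the ratios, p was 0.25 for both, the smallest that 3 pairs can give. Depth limits Plat and the control level of Serpinb2, which rests on 31 counts.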
